A study of Mus musculus with 15 samples.

Results

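The 9 genes described here are the Hedgehog pathway genes Shh, Ihh, Hhip, Ptch1, Smo, Sufu, Gli1, Gli2 and Gli3. They were taken by gene name from the deposited expression matrix, where each name matched 1 row, and they are 9 of the 55359 genes listed. RNA was sequenced in 15 mouse samples, 3 in each of the groups 46LCNEC_cell, 46LCNEC_allo, 57SCLC_cell, 57SCLC_allo and Lung.

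The lines 46LCNEC and 57SCLC came from lung tumors of QKO mice, which carry engineered alleles of tumor suppressor genes, Rb1, Rbl1 and Trp53 among them. The tumor behind 46LCNEC arose after adenoviral Cre driven by the CMV promoter, which is active in many cell types. The tumor behind 57SCLC arose after Ad-K5cre, in which Cre is driven by the keratin K5 promoter of basal airway cells. 46LCNEC_cell and 57SCLC_cell are the cultured lines, the first growing attached to the dish and the second in suspension. 46LCNEC_allo and 57SCLC_allo are tumors grown under the skin of immunocompetent QKO mice injected with those cells, so the recipients and Lung carry the same engineered alleles without Cre. Each tumor type is represented by a single line, so the type and the line cannot be told apart, and the p-values measure only the spread between these samples, which may be technical for 3 cultures of 1 line. Ages are not given in the sources used here.

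Hedgehog ligands such as Sonic hedgehog (Shh) and Indian hedgehog (Ihh) bind the receptor Patched (Ptch1), which otherwise holds the membrane protein Smoothened (Smo) inactive. Active Smo, which works in the primary cilium, releases the transcription factors Gli2 and Gli3 from processing into repressors, and Gli1, Ptch1 and Hhip are themselves targets that rise when the pathway is active. In the developing lung the ligand is made by the epithelium and the response takes place in the mesenchyme beneath it.

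The data had between 9480244 reads assigned to genes (57SCLC_allo 275) and 44876572 (57SCLC_cell C), with a median of 26502525. All values are normalized counts, that is reads per gene divided by a size factor for each sample, so values compare between samples for 1 gene and need division by exon length to compare genes. Counts of the targeted genes Rb1, Rbl1 and Trp53 were taken over all exons and do not show whether the alleles were recombined. The labels were checked against lists of marker genes. The 8 neuroendocrine markers, Chga and Syp among them, summed to between 98903 and 110426 normalized counts in 57SCLC_cell and between 58773 and 71369 in 57SCLC_allo. They summed to 34.6 to 56.3 in 46LCNEC_cell and 24.2 to 68.6 in 46LCNEC_allo, below the 232 to 240 of Lung, so the markers of the labelled neuroendocrine type were nearly absent from the 46LCNEC groups.

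Between the cultured lines the largest differences among the 9 genes were in Gli2, Smo and Gli1, which were close to absent from 57SCLC_cell and present in 46LCNEC_cell, while Ptch1, Hhip and Ihh were higher in 57SCLC_cell. Sequences upstream of the RefSeq starts are shown for Smo, Gli2 and Hhip, chosen by their levels. Each of these genes had a level in both settings of a line and was near absent from the cultured cells of the other. Each run holds the 150 bases from 250 to 101 bases before the RefSeq start, written 5' to 3' on the strand of the gene with CpG dinucleotides in capitals. They come from RefSeq's GRCm38.p6 table and were located by exact match in GRCm39 at chr6:29735246-29735395 on the plus strand for Smo, chr1:118981450-118981599 on the minus strand for Gli2 and chr8:80784738-80784887 on the minus strand for Hhip.
Smo: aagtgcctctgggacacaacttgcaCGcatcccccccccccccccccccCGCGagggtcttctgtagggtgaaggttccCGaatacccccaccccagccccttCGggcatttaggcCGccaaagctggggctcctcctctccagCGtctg
Gli2: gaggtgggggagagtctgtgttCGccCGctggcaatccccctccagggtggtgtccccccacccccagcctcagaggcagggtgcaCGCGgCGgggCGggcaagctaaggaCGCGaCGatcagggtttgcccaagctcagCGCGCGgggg
Hhip: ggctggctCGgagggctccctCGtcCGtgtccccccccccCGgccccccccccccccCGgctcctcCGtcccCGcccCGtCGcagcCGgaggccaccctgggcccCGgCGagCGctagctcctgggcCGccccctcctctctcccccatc

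These windows lay outside the exons of their own genes, though that of Gli2 lay inside the gene span of GENCODE M39, not before it. They held 7 CpG dinucleotides for Smo, 12 for Gli2 and 14 for Hhip, against a median of 3 over the 32851 windows of the same length, of which 28.4%, 14.4% and 10.5% held as many. The GLI binding motif has 9 letters, GACCACCCA or TGGGTGGTC on the other strand. It was found in 0 of the 7 members with a window and in 50 of all windows (0.152%). At so low a share, 0 of 7 was the likely outcome and says little about these members. The windows of Ptch1 and Gli3 lay within exons of their own genes. The match describes the letters of these windows only.

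Shh, the main Hedgehog ligand of the lung epithelium, was a gene of normal lung in these data. It lies on chromosome 5 from 28661813 to 28672254 on the minus strand of GRCm39 (ENSMUSG00000002633). Lung had 410.4, 696 and 577 normalized counts in CT3, CT4 and CT5. The 12 line samples lay between 0 and 5.67, with 0 reads in all 3 samples of 46LCNEC_allo, 4 reads over 46LCNEC_cell, 10 over 57SCLC_cell and 7 over 57SCLC_allo. Every Lung sample was thus above every sample of both lines, and Shh passed the filter on low values only through Lung. Against Lung, 46LCNEC_allo was at least 141-fold lower, computed against a floor of 3 reads per library. The ratio of Lung to 46LCNEC_cell was 459 (95% interval from 179 to 1685), to 57SCLC_cell 304 (165 to 633) and to 57SCLC_allo 161 (78.0 to 400), where the exact Poisson intervals and the floor cover counting error only. All 4 decreases passed limma's test with Benjamini-Hochberg adjustment over all genes tested at adjusted p values from 2.582e-08 (46LCNEC_cell) to 3.523e-05 (57SCLC_allo). The antisense lncRNA 9530036O11Rik overlaps 8983 bases of the Shh span, introns included. As the strand setting of the counting is not stated, reads from any shared exon bases cannot be told apart.

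Ihh, the ligand best known from cartilage and gut, was low in all groups and highest in 57SCLC_cell. The gene is on chromosome 1 from 74984474 to 74990837 on the minus strand (ENSMUSG00000006538). Its normalized counts were 69.8, 62.7 and 56.8 in 57SCLC_cell, 21.5, 29.7 and 38.6 in 57SCLC_allo, 22.4, 48.9 and 46.8 in Lung, 18.8, 11.04 and 13.8 in 46LCNEC_cell and 2.65, 12.6 and 9.96 in 46LCNEC_allo. The samples of 57SCLC_cell lay above all others, those of 57SCLC_allo overlapped with Lung, and those of the 46LCNEC groups overlapped with each other. Between the cultured lines the log2 fold change was 2.07 with a standard error (SE) of 0.24 and an adjusted p of 9.621e-05 (limma), higher in 57SCLC_cell. Between the allografts it was 1.88 (SE 0.58), which did not pass at an adjusted p of 0.02915 against the threshold of 0.01. The decrease of 46LCNEC_cell against Lung passed narrowly, with a log2 fold change of -1.33 (SE 0.36) and an adjusted p of 0.007249, within a range of 0.001788 to 0.3714 over 16 alternatives, and it no longer passed without Lung CT4 or CT5 or without 46LCNEC_cell B or C. The interval of 57SCLC_cell against Lung, from -0.01 to 1.49 on the log2 scale, included 0.

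Among the 6 genes for making and releasing ligand, Hhat, which attaches palmitate to the ligands, was higher than in Lung in all 4 line groups. Lung had a mean of 98.1 ± 14.7 (SD, n = 3), the allografts 1119 ± 350.2 (46LCNEC) and 322 ± 70.6 (57SCLC), and the cells 501 ± 47.2 and 278 ± 90.0, with log2 fold changes from 1.46 to 3.46. Disp1, which releases ligand from the cell, had 322 ± 45.2 in Lung and passed both thresholds with 2232 ± 81.9 in 46LCNEC_cell, 2072 ± 575 in 46LCNEC_allo and 818 ± 85.4 in 57SCLC_cell. The 578 ± 15.3 of 57SCLC_allo did not reach the fold. Of the secreted cofactors of ligand release, Scube2 was lower than in Lung in all 4 line groups, and Scube1 and Scube3 in all but 46LCNEC_allo. Scube2 had 2135 ± 440.4 in Lung and between 6.39 ± 0.675 and 81.8 ± 30.2 in the line groups, and Scube1 had 1105 ± 91.1 in Lung and 7.15 ± 1.51 to 433 ± 303 in them, where the 433 of 46LCNEC_allo did not pass (limma adjusted p = 0.04944). Scube3 had 313 ± 58.4 in Lung, 370.1 ± 94.3 in 46LCNEC_allo and between 38.7 ± 16.8 and 71.9 ± 5.88 in the other line groups. Desert hedgehog (Dhh), the remaining ligand, was low throughout, with means from 1.87 ± 0.335 in 46LCNEC_cell to 72.9 ± 12.9 in Lung. It was higher in 57SCLC than in 46LCNEC in both settings (log2 fold changes of 3.44 in cells and 2.94 in allografts, limma adjusted p values of 4.25e-06 and 0.007203). In both, Dhh passed the filter on low values only through 57SCLC, so these p values are no separate support. The 46LCNEC samples held 6 reads of it over the cells and 14 over the allografts.

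Ptch1, the receptor and a target of the pathway, was highest in Lung, lower in 57SCLC and lowest in 46LCNEC. It lies on chromosome 13 from 63656142 to 63721412 on the minus strand (ENSMUSG00000021466). The normalized counts were 3421, 3142 and 3790.4 in Lung, 2072, 2010.2 and 2022 in 57SCLC_cell, 1819, 1889.8 and 1658 in 57SCLC_allo, 814, 563 and 610.4 in 46LCNEC_cell and 760.3, 615 and 477 in 46LCNEC_allo. The 46LCNEC groups overlapped with each other and no other pair of groups did. Ptch1 was higher in 57SCLC_cell than in 46LCNEC_cell (log2 fold change 1.64, SE 0.13, adjusted p = 1.127e-05) and in 57SCLC_allo than in 46LCNEC_allo (1.56, SE 0.18, adjusted p = 4.527e-04). Against Lung it fell by 2.39 in 46LCNEC_cell and by 2.50 in 46LCNEC_allo on the log2 scale, with adjusted p values of 2.562e-07 and 6.436e-05. The decreases in 57SCLC_cell (-0.76) and 57SCLC_allo (-0.95) had adjusted p values of 7.253e-05 and 3.974e-05 but stayed under the fold required. Without Lung CT4, the value of 57SCLC_allo was -1.01 and passed.

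Hhip, a membrane-bound decoy that binds Hedgehog ligands and is itself a target, was likewise highest in Lung and lower in 57SCLC, and it was near absent from 46LCNEC. It lies on chromosome 8 from 80692480 to 80784658 on the minus strand (ENSMUSG00000064325). Lung had 783, 1365 and 876 normalized counts, 57SCLC_allo 156, 265 and 153, and 57SCLC_cell 99.8, 82.0 and 157. The 46LCNEC samples were near the limit of detection, with 5.63, 4.42 and 6.92 in 46LCNEC_cell (6, 4 and 9 reads) and 0, 1.05 and 6.64 in 46LCNEC_allo (0, 1 and 6 reads). Lung samples lay above all others, both 57SCLC groups above both 46LCNEC groups, and the settings overlapped within each line. The ratio of 57SCLC_cell to 46LCNEC_cell was 19.5 (12.5 to 32.3) and that of 57SCLC_allo to 46LCNEC_allo 71.3 (34.6 to 177), with limma's adjusted p values of 5.304e-06 and 5.596e-04. Against Lung the log2 fold changes were -3.16 in 57SCLC_cell (adjusted p = 2.339e-05) and -2.40 in 57SCLC_allo (adjusted p = 1.059e-04). Lung exceeded 46LCNEC_cell by a ratio of 174 (111 to 288) and 46LCNEC_allo by 376 (182 to 934).

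Other receptors and coreceptors did not move as a group. Gas1, a membrane-anchored coreceptor, had a mean of 7686 ± 299 normalized counts in 46LCNEC_allo, 512 ± 64.3 in 46LCNEC_cell, 959 ± 201 in Lung, 292 ± 117 in 57SCLC_allo and 0 in all 3 samples of 57SCLC_cell. Boc, a coreceptor of the immunoglobulin superfamily, had 2004 ± 634, 145 ± 7.39, 1131 ± 44.2, 53.5 ± 18.6 and 5.57 ± 3.28 in the same order of groups. Both rose from cells to allografts in both lines, with log2 fold changes of 3.91 and 3.72 in 46LCNEC and 8.10 and 3.17 in 57SCLC, where the value of Gas1 depends on the pseudocount. Fibroblast markers were called higher in the same tumors (7 of 8 in 46LCNEC and 8 of 8 in 57SCLC), as were endothelial and leukocyte markers, whose values are given with those of Gli2 and Smo. Of all genes tested, 14.4% were called higher in each line. In 57SCLC, Gas1 and Boc passed the filter on low values only through the allografts, as did many of these markers. Cdon, the relative of Boc, was called higher than Lung (698 ± 66.6) in 57SCLC_cell (1480 ± 168) and in 46LCNEC_allo (5418 ± 3206), where the spread between tumors was wide. In 57SCLC_allo it had 1343 ± 59.3, above every Lung sample, but did not pass both thresholds. The endocytic receptor Lrp2 was high in Lung (1840 ± 438) and at most 41.3 ± 0.827 in the lines.

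**Figure D1:**
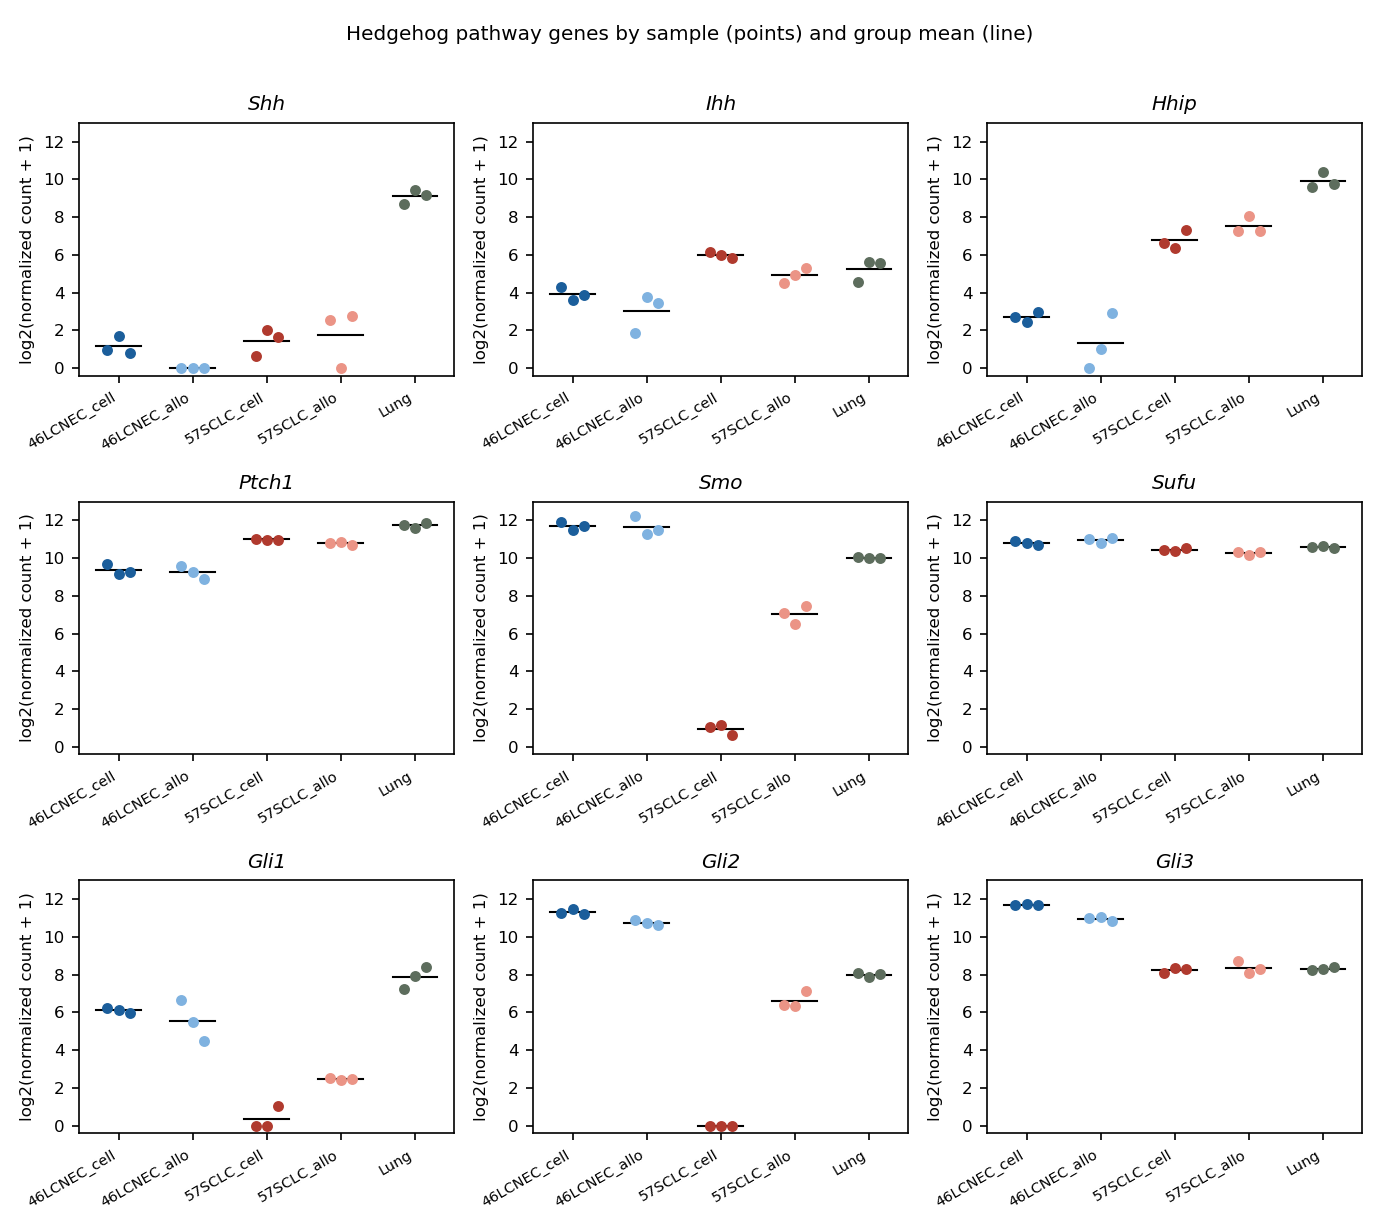
Level of each of the 9 genes, as log2(normalized count + 1), in the 15 samples. Points are samples and lines are group means; Smo, Gli2 and Gli1 lie near 0 in 57SCLC_cell, and Shh lies near 0 in all groups but Lung.

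Smo, the membrane protein through which the ligand signal enters the cell, differed most among the 9 genes between the cultured lines, together with Gli2. It is on chromosome 6 from 29735407 to 29762532 on the plus strand (ENSMUSG00000001761). The normalized counts were 3820.5, 2935 and 3304 in 46LCNEC_cell and 4812, 2471 and 2923 in 46LCNEC_allo. Lung had 1064, 1019 and 1019.6. In 57SCLC_cell only 2, 2 and 1 reads were counted (1.09, 1.206 and 0.521 normalized counts), whereas 57SCLC_allo had 134, 89.2 and 178. The 46LCNEC settings overlapped with each other and lay above Lung, and 57SCLC_allo lay between Lung and 57SCLC_cell without overlap. The ratio of 46LCNEC_cell to 57SCLC_cell was 3628 (95% interval from 1555 to 11174) and that of Lung to 57SCLC_cell 1119 (480 to 3447). Between the allografts the log2 fold change was -4.65 (SE 0.33, adjusted p = 6.063e-05 by limma), a ratio of means of 25.4. Smo was higher than Lung in 46LCNEC_cell (log2 fold change 1.69, SE 0.10, adjusted p = 2.727e-07) and in 46LCNEC_allo (1.66, SE 0.24, adjusted p = 0.001164), although the latter did not pass a test against a fold of 2 (adjusted p = 0.05854, the highest of a range that began at 9.091e-10 over 16 alternatives). The processed pseudogene Gm13717 overlaps 365 bases of the gene.

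Of the 9 regulators of Smo, 8 were tested and Efcab7 was listed at 0 in every sample. Evc and Evc2, which form a complex with Smo at the base of the cilium, differed in the same direction as Smo in each of the comparisons between lines and against Lung. Evc2 had 2407 ± 288 normalized counts in 46LCNEC_allo, 2232 ± 28.4 in 46LCNEC_cell, 686 ± 36.0 in Lung, 107 ± 55.5 in 57SCLC_allo and 1.09 ± 0.480 in 57SCLC_cell. Evc had 2879 ± 354, 2167 ± 84.8, 715 ± 44.3, 103 ± 27.9 and 6.07 ± 3.10 in the same order. The 2 genes are neighbors on chromosome 5. Gpr161, a ciliary receptor that holds the pathway off, was higher than Lung (210.0 ± 2.31) in all 4 line groups, with means from 1013 ± 111 in 46LCNEC_cell to 1735 ± 65.3 in 57SCLC_allo and log2 fold changes from 2.26 to 3.04. Arrb2 and Mgrn1 varied less, between 831 ± 68.6 and 2551 ± 852 and between 495 ± 63.7 and 1368 ± 68.8.

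Sufu, which binds the Gli proteins and restrains them in the cytoplasm, was the most even of the 9 genes. It lies on chromosome 19 from 46385324 to 46477243 on the plus strand (ENSMUSG00000025231). The group means ran from 1247 ± 70.1 normalized counts in 57SCLC_allo over 1387 ± 72.2 in 57SCLC_cell, 1562 ± 62.2 in Lung and 1796 ± 128 in 46LCNEC_cell to 1995 ± 193 in 46LCNEC_allo. Only the 46LCNEC settings overlapped. Both differences between the lines had adjusted p values under the threshold (0.003493 in cells and 0.002132 in allografts) at log2 fold changes of -0.37 and -0.67, too small to be called. Of the 14 further genes of Gli processing, 0 were called higher than in Lung in any line group. Lower were 3 in 46LCNEC_cell and 3 in 46LCNEC_allo, where 35.0% and 22.1% of all genes tested were, and 4 in 57SCLC_cell and 4 in 57SCLC_allo, where 32.7% and 26.9% were, so the shares of the list were near or below those of all genes. They were Numb, Spop and Stk36 in all 4 groups, and Kif7 in both 57SCLC groups. Spop, a ubiquitin ligase adaptor for Gli proteins, had 12525 ± 1179 in Lung against 4875 ± 420 to 5810 ± 363 in the lines. Kif7, the ciliary kinesin that organizes Gli at the cilium tip, had 548 ± 29.8 in 46LCNEC_cell, 307 ± 67.6 in 46LCNEC_allo and 308 ± 8.99 in Lung, but 78.5 ± 15.3 in 57SCLC_cell and 66.9 ± 4.07 in 57SCLC_allo.

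Gli2, the main activator among the Gli factors, had 0 reads in all 3 samples of 57SCLC_cell. It lies on chromosome 1 from 118761858 to 118982598 on the minus strand (ENSMUSG00000048402). The normalized counts were 2469, 2803 and 2358 in 46LCNEC_cell, 1915, 1681 and 1605 in 46LCNEC_allo, 267, 237 and 265 in Lung and 81.4, 80.7 and 137 in 57SCLC_allo. No 2 groups overlapped. Cultured 57SCLC cells were at least 1406-fold lower than 46LCNEC_cell and at least 142-fold lower than Lung, computed against a floor of 3 reads per library. Against Lung, Gli2 was higher in 46LCNEC_cell (log2 fold change 3.30, SE 0.10, adjusted p = 4.108e-09) and 46LCNEC_allo (2.75, SE 0.12, adjusted p = 1.155e-05), and lower in 57SCLC_allo (-1.40, SE 0.24, adjusted p = 0.001014). The last did not pass a test against a fold of 2 (adjusted p = 0.1737, from a low of 1.71e-06 over 16 alternatives).

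Gli3, which acts mostly as a repressor, was the only Gli gene with a clear level in 57SCLC_cell. It is on chromosome 13 from 15637809 to 15904611 on the plus strand (ENSMUSG00000021318). The normalized counts were 3264, 3393 and 3357 in 46LCNEC_cell and 2038, 2145 and 1823 in 46LCNEC_allo. Lung had 304, 313 and 336, cultured 57SCLC cells 276, 325 and 315, and their allografts 421, 268 and 318. The last 3 groups overlapped with each other, and both 46LCNEC groups lay above them. Neither 57SCLC group differed from Lung past the thresholds, with 95% intervals of the log2 fold change from -0.33 to 0.21 for cells and from -0.36 to 0.47 for the tumors. The increases over Lung were 3.39 (SE 0.08, adjusted p = 1.034e-09) in 46LCNEC_cell and 2.65 (SE 0.11, adjusted p = 1.012e-05) in 46LCNEC_allo.

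Gli1, an activator and the usual reporter of pathway activity, was highest in Lung. It lies on chromosome 10 from 127165751 to 127177865 on the minus strand (ENSMUSG00000025407). The normalized counts were 150.2, 243 and 335 in Lung, 73.2, 69.5 and 60.7 in 46LCNEC_cell and 100.7, 44.2 and 21.0 in 46LCNEC_allo. 57SCLC_allo had 4.79, 4.25 and 4.54, from 2, 3 and 4 reads, and 57SCLC_cell had 0, 0 and 1.04, from 0, 0 and 2 reads. Lung lay above all other groups, the 46LCNEC groups overlapped with each other, and both 57SCLC groups lay below them. The ratio of Lung to 57SCLC_allo was 54.1 (95% interval from 28.5 to 118) and that of 46LCNEC_cell to 57SCLC_cell 184 (50.8 to 1515). Against Lung the log2 fold change was -1.75 in 46LCNEC_cell (adjusted p = 2.744e-04). In 46LCNEC_allo it was -2.31 and did not pass (adjusted p = 0.01397, from 0.000803 to 0.114 over 16 alternatives), but it was -2.88 and passed without tumor 312 (adjusted p = 0.004623). The difference between the allografts passed (log2 fold change -3.08, SE 0.58, adjusted p = 0.004014, over alternatives from 7.772e-05 to 0.02579) but no longer did without 46LCNEC_allo 319 or any of the 57SCLC_allo tumors. An antisense lncRNA, Gm47200, overlaps 9606 bases of the Gli1 span, introns included, with the same limit from the unstated strand setting as for Shh. Overlapping lncRNAs are also annotated for Gli2, Gli3, Hhip, Ptch1 and Sufu.

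Set side by side per kilobase of exon, the genes had different orders in the groups. In 46LCNEC_cell the means were 379.6 ± 50.4 normalized counts per kilobase for Smo, 334 ± 6.63 for Gli3 and 316 ± 28.8 for Gli2, followed by 194 ± 13.9 for Sufu, 45.0 ± 9.07 for Ptch1 and 13.5 ± 1.27 for Gli1. Gli3 lay within the SD of Smo and of Gli2, whereas Smo and Gli2 differed by more than either SD. In 57SCLC_cell Sufu (150.1 ± 7.82) and Ptch1 (138 ± 2.23) led, then Gli3 (30.5 ± 2.62), Ihh (20.7 ± 2.14) and Hhip (10.5 ± 3.64), and the remaining 4 were at most 0.661 ± 0.438. In Lung the order began with Ptch1 (234 ± 22.1), Shh (197 ± 50.4) and Sufu (169 ± 6.73), whose neighbors lay within the spread of Shh. Smo (117 ± 2.94), Hhip (94.0 ± 29.2), Gli1 (48.4 ± 18.4), Gli2 (31.8 ± 2.03), Gli3 (31.8 ± 1.64) and Ihh (12.9 ± 4.82) followed.

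**Figure D2:**
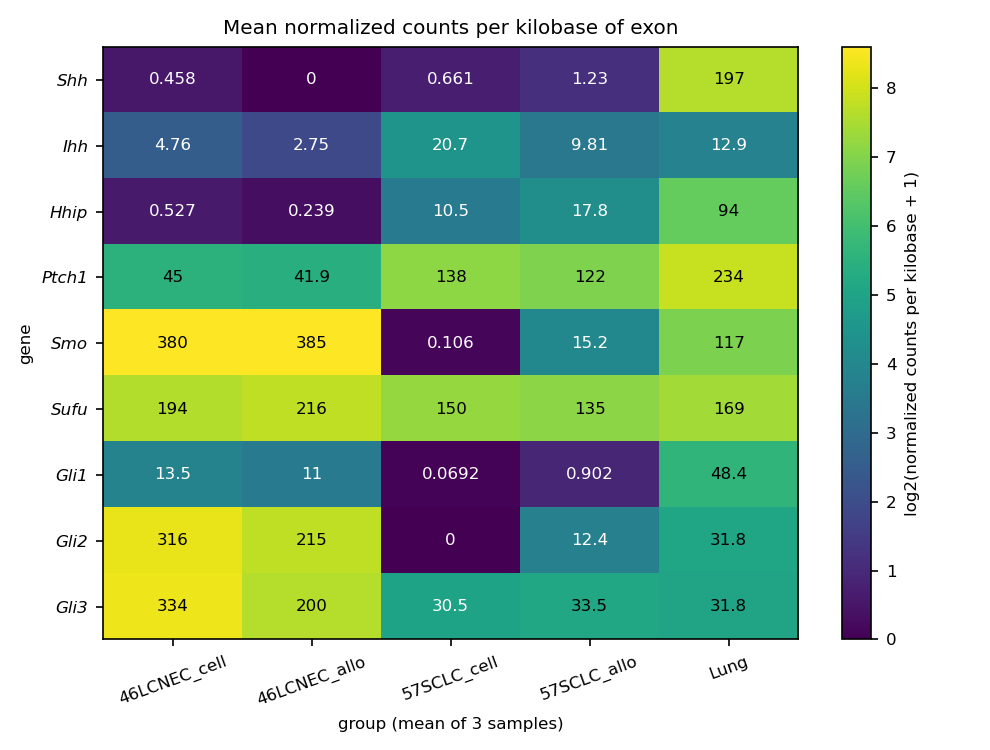
Mean normalized counts per kilobase of exon for the 9 genes (rows) in the 5 groups (columns, 3 samples each), with color on the log2(value + 1) scale. Smo is at 379.6 in 46LCNEC_cell and 0.106 in 57SCLC_cell, and Ptch1 at 45.0 and 138.

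The next counts set the 9 genes against all genes tested. A gene was called when the adjusted p of limma was at most 0.01 and the log2 fold change, on log2(normalized count + 1), was at least 1 in size, a scale that understates the change of low genes. Several members passed the filter on low values only through the group in which they were high (Shh through Lung, Hhip in comparisons with 46LCNEC, Ihh in those with 46LCNEC_allo, Gli1 in those with either 57SCLC group, and Smo and Gli2 in those with 57SCLC_cell), so the counts describe these genes and are no separate support. The comparisons with Lung share the same 3 Lung samples.

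In 46LCNEC_allo against Lung, 3 of 9 members were higher (Gli2, Gli3 and Smo) and 3 lower (Ptch1, Hhip and Shh), where 13.4% of all 18033 genes tested were called higher and 22.1% lower. In 46LCNEC_cell against Lung, the same 3 were higher and 5 were lower, Gli1 and Ihh in addition, against 20.6% and 35.0% of all genes. In 57SCLC_allo against Lung, 0 were higher and 5 lower (Gli1, Gli2, Smo, Hhip and Shh), with a background of 18.9% higher and 26.9% lower. In 57SCLC_cell against Lung, 0 were higher and the same 5 lower, with 21.1% and 32.7% of all genes. The median log2 fold changes of the members were -2.23, -1.33, -1.40 and -3.16 in that order, against -0.14, -0.23, -0.09 and -0.12 for all genes tested.

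Between the cultured lines, 8 members were tested, and 3 were higher in 57SCLC_cell (Ptch1, Hhip and Ihh) and 4 lower (Smo, Gli1, Gli2 and Gli3), where 23.9% of all genes were called higher and 22.2% lower. Between the allografts, 2 of 8 were higher in 57SCLC_allo (Ptch1 and Hhip) and 4 lower (the same as in cells), with a background of 16.1% and 14.2%. The log2 fold changes of Gli3 were -3.45 in cells (SE 0.09, adjusted p = 1.832e-08) and -2.60 in allografts (SE 0.18, adjusted p = 5.887e-05). Shh was not tested between the lines in either setting, as it was too low.

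**Figure D3:**
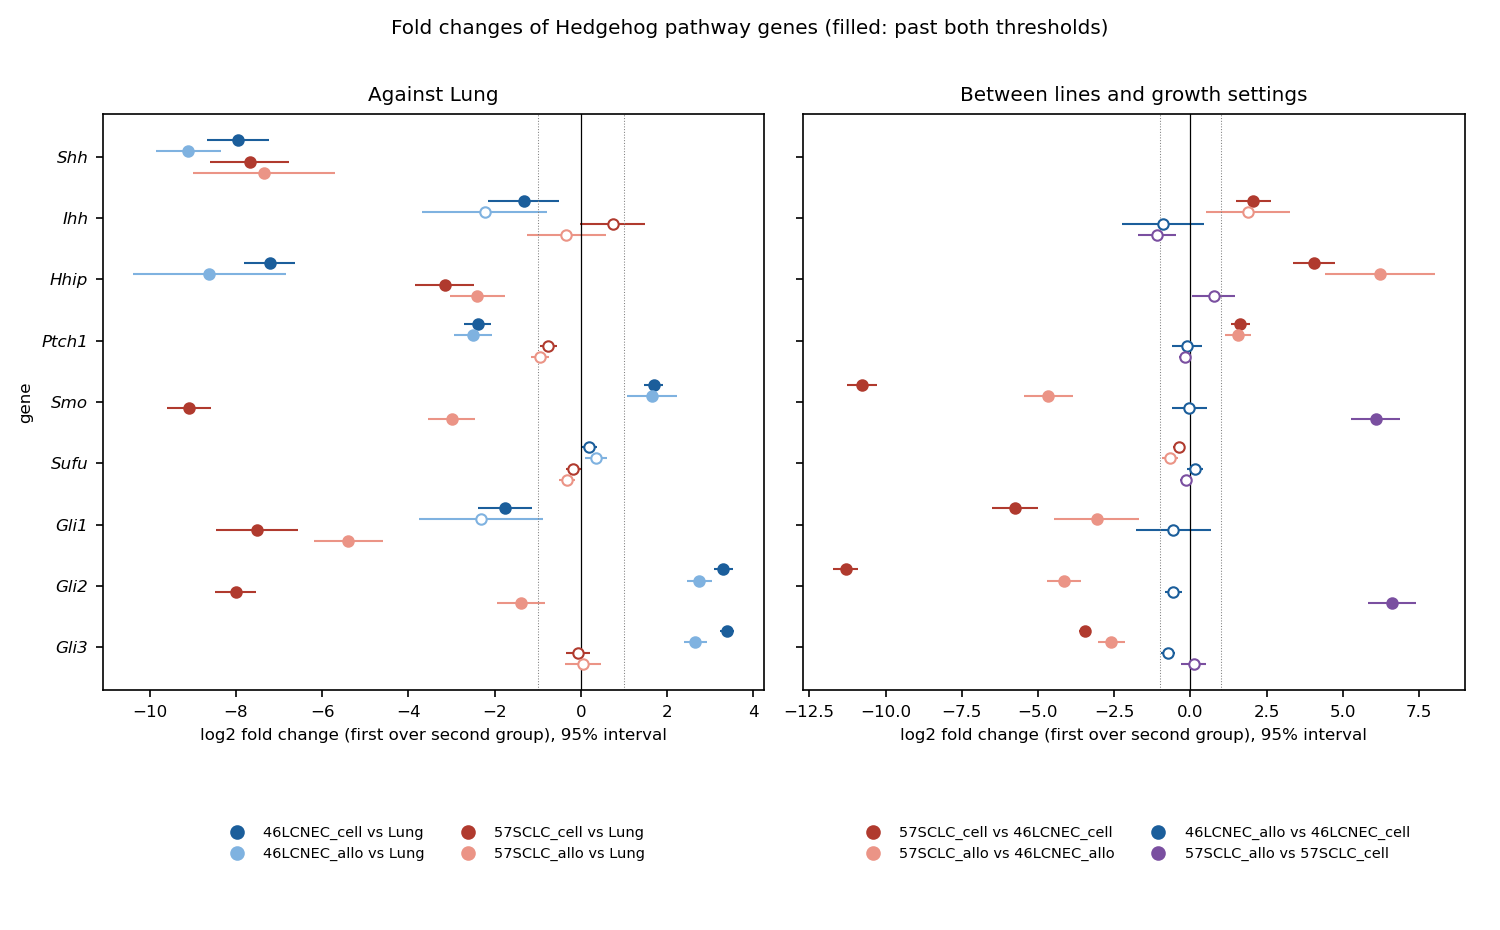
Log2 fold changes of the 9 genes on log2(normalized count + 1) with 95% confidence intervals (limma), against Lung (left) and between lines and growth settings (right). Filled points passed both thresholds, dotted lines mark a log2 fold change of 1 in size, and a gene with no point was not tested; in the left panel Shh and Hhip lie below 0 in all 4 groups while Gli2, Gli3 and Smo lie above 0 in the 46LCNEC groups.

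From cells to allografts the lines differed in Smo and Gli2. In 46LCNEC, 0 of 7 members tested were called by limma, where 14.4% of all genes rose and 8.45% fell, and 0 were called by edgeR and by DESeq2. At an unadjusted p under 0.05 there were 2, Gli2 (log2 fold change -0.55, SE 0.11, adjusted p = 0.005818) and Gli3 (-0.74, SE 0.10, adjusted p = 8.080e-04), both below the fold required. The 95% interval for Smo ran from -0.60 to 0.54. In 57SCLC, 2 of 7 members were higher in the allografts, Gli2 and Smo, and 0 were lower, against 14.4% and 2.29% of all genes. Gli2 was at least 55.2-fold higher in 57SCLC_allo than in 57SCLC_cell (limma log2 fold change 6.61, SE 0.34, adjusted p = 2.22e-06). For Smo the ratio was 145 (62.0 to 446), with a log2 fold change of 6.08 (SE 0.35, adjusted p = 4.187e-06). The fitted log2 value of Gli2 depends on the pseudocount, since cultured 57SCLC cells had no read of it. Ptch1, Hhip, Sufu and Gli3 were not called. The 95% interval of Hhip lay above 0 (0.06 to 1.46) and that of Ptch1 below it (-0.3716 to -0.0034), with limma's adjusted p values of 0.07787 and 0.09589. Those of Sufu and Gli3 included 0. Ihh had a log2 fold change of -1.08 with an adjusted p of 0.0137. At an unadjusted p under 0.05 there were 5 of the 7, Gli2, Smo, Ptch1, Hhip and Ihh. Gli1 and Shh were too low to be tested.

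The difference itself, tested as an interaction of line and setting over the 12 line samples, was called for 2 of 8 members, with 10.8% of all 18440 genes called with a change to allografts more positive in 57SCLC and 6.78% with it more negative. These were Gli2 (7.16 on the log2 scale, SE 0.30, adjusted p = 1.434e-08) and Smo (6.11, SE 0.41, adjusted p = 5.585e-07). Gli1 (2.68, adjusted p = 0.01112) and Gli3 (0.86, adjusted p = 0.00709) did not pass both thresholds.

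Markers of other cell types moved with these changes. In 57SCLC the 8 fibroblast markers summed to between 106 and 133 normalized counts in cells and to between 41613 and 64476 in allografts, and 8 of 8 were called higher. Col3a1, Dcn and Lum were at or under the floor of 3 reads in all cultured 57SCLC samples, and Lum was at 0. The 5 smooth muscle markers went from 248 to 324 up to 3398 to 4802 (4 of 5 called higher, Acta2 at or under the floor in cells). The 5 endothelial markers went from 63.3 to 88.6 up to 2534 to 3569 (5 of 5, Cdh5, Kdr and Emcn at or under the floor), and the 5 leukocyte markers from 230 to 257 up to 2768 to 4596 (5 of 5, Ptprc, Adgre1 and Cd3e at or under the floor). Of all genes tested, 14.4% were called higher. Markers at or under the floor in cells passed the filter on low values only through the allografts, so their calls are no separate support. Among the 57SCLC tumors, Gli2 and Smo were highest in 317, as was the fibroblast sum, while the smooth muscle, endothelial and leukocyte sums were highest in 275. Both genes and all 4 sums were lowest in 316, although Gli2 was nearly equal in 316 (80.7) and 275 (81.4). The part of these cells in the rise of Gli2, Smo, Gas1 and Boc was not tested, and in bulk samples fewer cells of a type and less RNA per cell cannot be told apart.

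The 46LCNEC cultures, which had no tissue of an allograft host, also carried part of the fibroblast list. They were set up from dissociated lung tumors, and which cells of the cultures held these markers was not tested. The cells had sums between 82595 and 93068 and the tumors sums between 433351 and 855317, against 27912 to 33512 in Lung. Col1a2 had a mean of 50209 ± 3865 and Pdgfrb 6346 ± 323 normalized counts in 46LCNEC_cell, while Dcn had 11.1 ± 2.70 and Lum was at or under the floor. In 46LCNEC_allo, 7 of 8 fibroblast, 5 of 5 endothelial and 4 of 4 tested leukocyte markers were called higher than in cells, and of the 5 smooth muscle markers 1 was higher (Acta2) and 1 lower (Cnn1), beside the 0 of 7 Hedgehog members. Of all genes tested, 14.4% were higher and 8.45% lower. Lum, Cdh5, Emcn, Ptprc and Adgre1 passed the filter on low values only through the allografts. Lung held the epithelial compartment that the line samples lacked: the alveolar markers summed to between 224329 and 302154 in Lung and to at most 2723 in any line sample, and the airway markers to between 163328 and 234079 and at most 435. The endothelial markers were also highest in Lung, with sums from 74341 to 84151 against at most 8793 in any line sample. The smooth muscle markers summed to between 11891 and 15731 in Lung and to at most 4802 in the lines. The fibroblast and leukocyte sums were not highest in Lung. The part of these cell types in the differences from Lung was not tested.

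**Figure D4:**
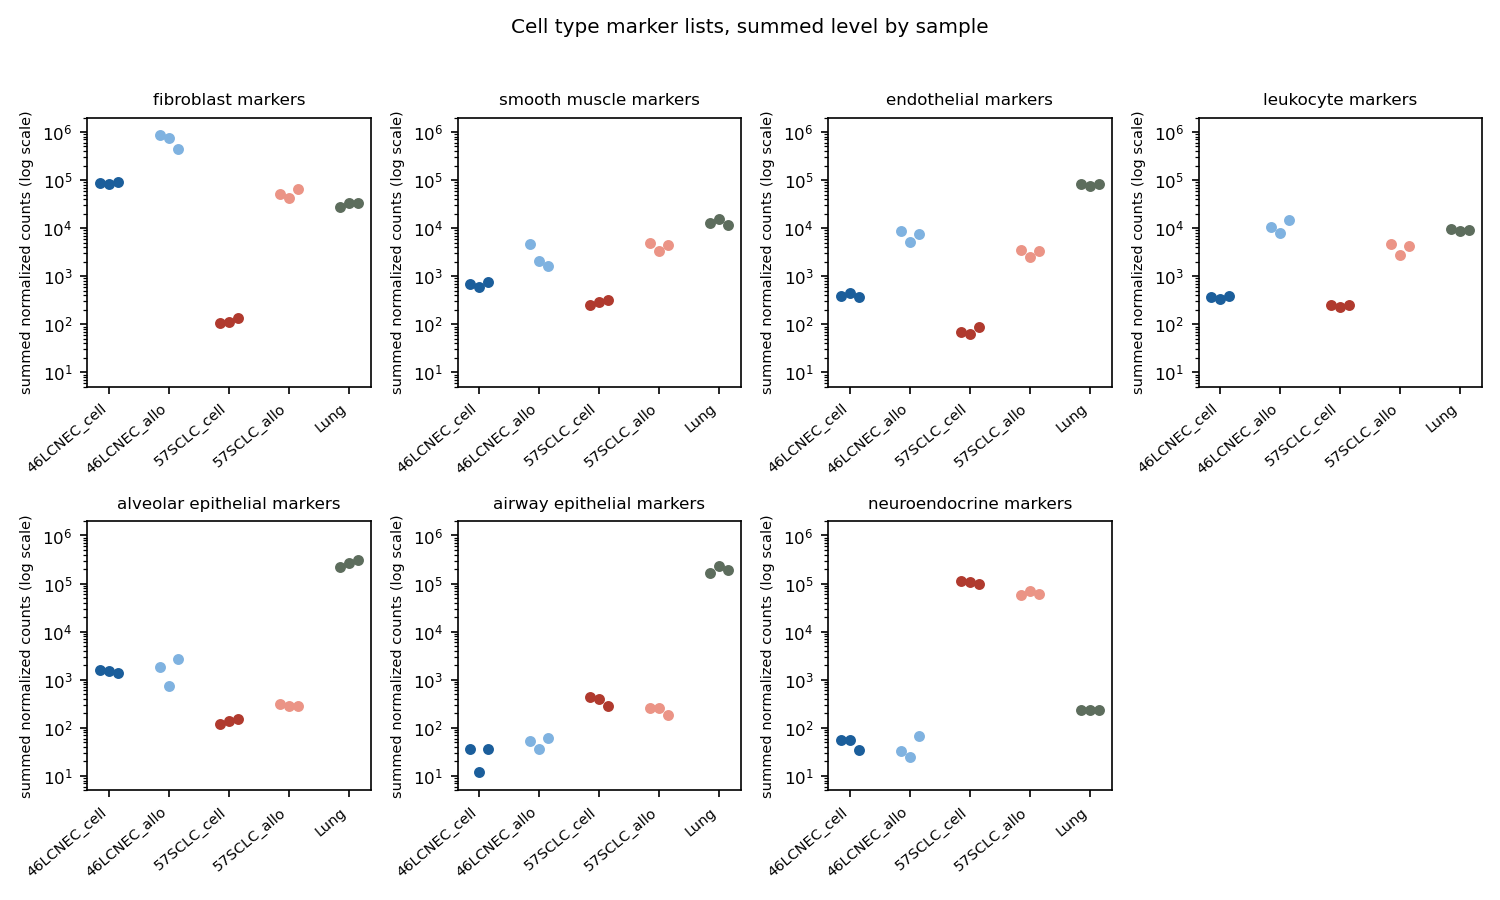
Summed normalized counts of 7 marker lists in each of the 15 samples, on a log axis, with 1 point per sample. Fibroblast, smooth muscle, endothelial and leukocyte lists are higher in 57SCLC_allo than in 57SCLC_cell, and the neuroendocrine list is at 24.2 to 68.6 in 46LCNEC.

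Of 13 further target genes, 8 or 9 were tested in each comparison, and Foxf1, Foxl1, Foxc2 and Nkx2-2 were listed at 0 in every sample, Lung included. For these, as for Efcab7, a silent gene and a gene missed by the counting cannot be told apart. Against Lung, 7 of 9 were lower and 1 higher in each 57SCLC group, 5 lower and 2 higher in 46LCNEC_cell, and 5 lower and 1 higher in 46LCNEC_allo. Of all genes tested, 26.9% were lower and 18.9% higher in 57SCLC_allo, 32.7% and 21.1% in 57SCLC_cell, 35.0% and 20.6% in 46LCNEC_cell, and 22.1% and 13.4% in 46LCNEC_allo. The median log2 fold changes were -1.31 in 57SCLC_allo, -7.59 in 57SCLC_cell, -1.39 in 46LCNEC_cell and -3.14 in 46LCNEC_allo. Foxf2, a forkhead factor of lung mesenchyme, had 2428 ± 210.0 normalized counts in Lung, 798 ± 108 in 46LCNEC_cell, 233 ± 89.5 in its allografts, 1.08 ± 0.872 in 57SCLC_cell and 10.5 ± 5.68 in 57SCLC_allo. Ccnd1, the G1 cyclin D1, had 9540 ± 1340 in 46LCNEC_cell, 3056 ± 596 in 46LCNEC_allo, 3272 ± 89.7 in Lung, 234 ± 94.0 in 57SCLC_allo and 16.8 ± 6.71 in 57SCLC_cell. Many of these genes answer to other pathways as well.

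Between the cultured lines, 5 of 8 targets tested were lower in 57SCLC_cell and 1 higher, with 22.2% of all genes lower and 23.9% higher. Between the allografts 3 of 9 were lower in 57SCLC_allo and 3 higher, with 14.2% and 16.1% of all genes, and the median log2 fold change was 1.07, against -6.30 between cells (-5.87 with the gene that had no reads in 57SCLC_cell at its bound). The gene higher between cells was Foxa2, a forkhead factor of airway and gut epithelium, with 13115 ± 1778 against 3999.5 ± 456. Foxa2 had 8786 ± 936 in 57SCLC_allo, 2539 ± 190 in Lung and 61.1 ± 85.4 in 46LCNEC_allo, where the tumors ran from 4.21 to 159.3. Osr1, a zinc finger factor of early mesoderm, had 2770 ± 162 in 46LCNEC_cell, 1771 ± 424 in 46LCNEC_allo, 511 ± 100.8 in Lung, 41.0 ± 12.3 in 57SCLC_allo and 0.174 ± 0.301 in 57SCLC_cell. From cells to allografts, 6 of 8 rose in 57SCLC and 0 fell, where 14.4% and 2.29% of all genes did, whereas in 46LCNEC 1 of 9 rose (Mycn) and 4 fell, where 14.4% and 8.45% did. Ccnd2, cyclin D2, went from 0 reads in all 57SCLC_cell samples to 855 ± 242, and Mycn, the Myc family member, from 6.05 ± 1.55 to 81.0 ± 15.7. The interaction was called for 7 of 9, all with a change to allografts more positive in 57SCLC, as for 10.8% of all genes. Several targets passed the filter on low values only through the group in which they were high. Ccnd2, Mycn, Osr1 and Sfrp1 did so in 57SCLC from cells to allografts, as did Mycn in 46LCNEC. The counts of targets thus describe these genes and are no separate support. The same host cell markers as above moved with these genes, and their part was not tested.

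Few genes of the primary cilium list were called. Of 30 genes tested, between 0 and 3 were called in either direction in each of the 8 comparisons, shares below those of all genes given above in each of the 8. Ift88, a subunit of the intraflagellar transport complex, was the gene called most often, with 717 ± 76.7 normalized counts in Lung and between 258 ± 12.1 and 319 ± 11.95 in the line groups. Kif3a, a motor subunit of the same transport, had between 581 ± 34.1 in Lung and 1029 ± 181 in 46LCNEC_allo.

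**Figure D5:**
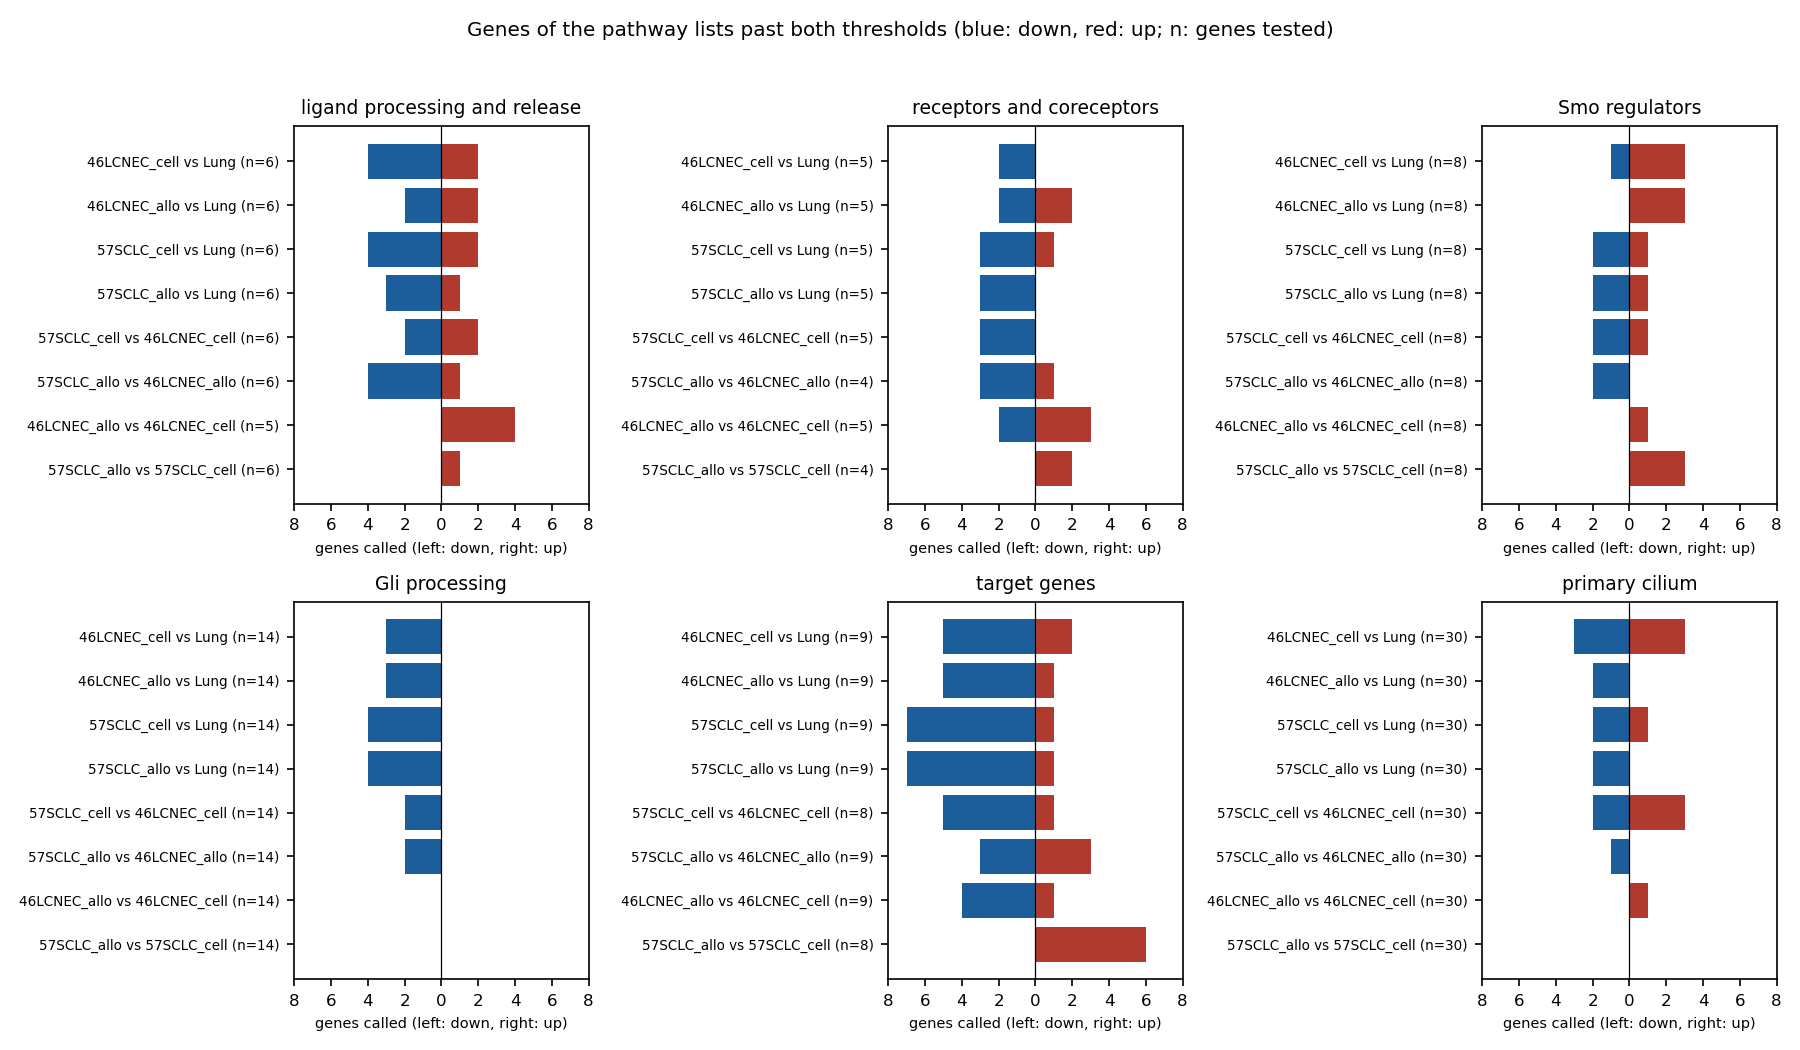
Number of genes of 6 pathway lists called lower (blue, left) and higher (red, right) in 8 comparisons, with the number tested in brackets. In 57SCLC_allo against 57SCLC_cell, 6 of 8 target genes are called higher, and 0 of 30 cilium genes are called.

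By the correlation of log2(normalized count + 1) over all 15 samples, the genes nearest to Gli2 among 15073 named genes were Runx2 (Pearson r = 0.998), Hspg2 (0.997) and Kirrel (0.996). Those nearest to Smo were Ccdc102a (0.998), Dzip1l (0.996) and Evc2 (0.996). Gli3 was followed by Dlx2 (0.992), Tiam2 and Wincr1, Gli1 by Denn2b (0.986), Flot1 and Qk, Ptch1 by Ppp4r4 (0.982), Chchd10 and Rasgef1a, and Hhip by Efcab6 (0.991), Klhdc8b and Gm15663. Sufu (Stn1, 0.953) and Ihh (Plcd4, 0.940) had less similar leading genes than Shh (2010001K21Rik, 0.988). The samples fall into groups that share line and setting, so these values rank likeness across 5 groups and are descriptions.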

How the data were processed

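RNA was sequenced after poly-A selection (paired ends) in 15 mouse samples. The authors used Rbowtie2 on GRCm39, took gene counts on GENCODE M27 from featureCounts and scaled them by DESeq2 size factors. The deposited values are thus a signal (normalized counts), not raw counts. The strand setting and the handling of reads with several alignments are not given in the sources used here. Every non-zero value was a whole multiple of 1 step per sample (100.0% within 0.01 of a read), which gave back the reads, from 9480244 to 44876572 per sample.

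Comparisons used limma 3.58.1 (R 4.3.3) with a mean-variance trend on log2(normalized count + 1), two-sided, over the 6 samples compared (12 for the interaction) and on genes that reached 10 normalized counts in 3 or more samples. A call needed an adjusted p (Benjamini-Hochberg) of 0.01 or less together with a log2 fold change of 1 or more in size. edgeR 4.0.16 and DESeq2 1.42.0 were run on the recovered reads as alternatives. The other alternatives were library size and upper quartile scaling, no filter, pseudocounts of 0.1 and 5, an adjusted p of at most 0.05, limma's test against a fold of 2, all 15 samples in 1 model, a block on the replicate letters and each sample left out in turn. All 3 procedures (limma, edgeR and DESeq2) were first tested on simulated data in which 200 genes were changed.

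Values at or under 3 reads count as not detected, and ratios with few reads have exact Poisson intervals (95%), both covering counting error only. The 9 members and the gene lists were chosen with earlier results of these data known. Up to 6 genes per pathway list are named, those called in most of the 8 comparisons, then by the larger absolute log2 fold change, and the 3 genes most correlated with each member among those with a mean of at least 50 normalized counts. Kif3a, Foxf1 and the other genes listed at 0 were named after their values were seen. Coordinates and exon lengths come from GENCODE M39, and upstream sequences from RefSeq (GRCm38.p6), which held 7 of the 9 members. Summaries and figures used Python 3.11.15 with scipy 1.17.1, pandas 2.3.3, numpy 2.4.6 and matplotlib 3.10.9. Some genes are not reported here.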

Additional observations from a re-analysis of the deposited data

Results flagged for a closer look

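Gli2 and Smo were singled out because their change from cells to allografts differed between the lines by a test of the difference itself. The change in 57SCLC minus that in 46LCNEC was 7.16 on the log2 scale for Gli2 (SE 0.30, limma adjusted p = 1.434e-08, from 4.90 to 10.48 over 22 alternatives) and 6.11 for Smo (SE 0.41, adjusted p = 5.585e-07, from 4.53 to 7.13). All 3 allografts of 57SCLC exceeded all 3 cultures for both genes, while for Smo in 46LCNEC the settings overlapped. Markers of fibroblasts, smooth muscle, endothelium and leukocytes rose in the same tumors, and their part in the change was not tested.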

How the results depend on the processing

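The number of members called stayed within 1.5 times its value in each of the 151 alternatives run for it, with ranges of 5 to 8 for 46LCNEC_allo against Lung, 4 to 6 for 57SCLC_allo, 6 to 8 for 46LCNEC_cell, 5 for 57SCLC_cell, 7 between cells, 4 to 7 between allografts, 0 in 46LCNEC and 2 to 3 in 57SCLC from cells to allografts, and 2 to 3 for the interaction. Of the fold changes of single members, 1183 kept direction and side of the thresholds, 18 lost the call, 20 gained it and 19 changed sign.

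Over all genes, limma's test against a fold of 2 called 3451 in place of 6412 genes in 46LCNEC_allo against Lung, 2861 in place of 5312 between allografts, 1414 in place of 3738 in 46LCNEC and 1700 in place of 2842 in 57SCLC from cells to allografts, and 1293 in place of 3233 for the interaction, since it asks for more. Leaving out 1 sample gave 2428 to 4103 genes in 46LCNEC from cells to allografts, the lowest without 46LCNEC_cell C, where the cause was not tested.

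The signs that changed belonged to values near 0 that were not called. Gli3 in 57SCLC_cell against Lung was 0.17 with library size, 0.086 with upper quartile and 0.018 with edgeR, and from -0.11 to 0.011 with 1 sample left out (above 0 without 57SCLC_cell A). Sufu in that comparison was 0.057 with library size. With 1 sample left out, Gli3 in 57SCLC_allo ran from -0.12 to 0.20 against Lung and from -0.062 to 0.27 against cells, below 0 without tumor 275. From cells to allografts in 46LCNEC, Smo was 0.037 with edgeR, 0.027 with DESeq2 and from -0.31 to 0.17 with 1 sample left out, and Ptch1 ran from -0.27 to 0.064, where leaving out cells A or tumor 321 turned both and tumor 319 turned Smo. In the interaction, Ihh ran from -0.77 to 0.18 (above 0 without tumors 275, 319 or 321) and Ptch1 from -0.25 to 0.085 (above 0 without 46LCNEC_cell B or tumor 312). Hhip there was 2.96 and called without 321 (adjusted p = 0.001789, over alternatives up to 0.5363), Gli1 was called without 57SCLC_cell C (3.02) or 312 (3.24), and Gli3 without 316 (1.01).

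Library size scaling moved the median of all genes by 0.21 in 57SCLC_allo and 0.23 in 57SCLC_cell against Lung, 0.23 between cells and 0.26 between allografts, and the members are best read against that. The letters A, B and C of the cells do not pair the lines (correlations of deviations of 0.09, -0.09 and -0.01), and with the replicate block 7 members were called between cells, as without it. Depth limits Shh in the lines, Hhip in 46LCNEC, Gli1 in both 57SCLC groups, and Gli2 and Smo in 57SCLC_cell, which rest on 0 to 9 reads per sample.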
